A study of Mus musculus with 10 samples.

Results

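The genes described here are the ligands, receptors and regulators of Wnt signalling, followed in mouse embryonic stem cells that lack isoforms of Mbd3. Members were chosen by gene symbol alone (Wnt, Fzd, Lrp5 and Lrp6, Axin, Dvl, Dkk, Sfrp, Apc, Gsk3, Csnk1, Tle, Celsr and related names). The symbols of 92 annotated protein-coding genes fit that rule, and 50 of them stand among the 8694 genes listed in any of the 4 deposited tables. The other 42, Ctnnb1 (beta-catenin) among them, are listed in no table and have no value here.

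The cells were E14 mouse embryonic stem cells, grown on gelatin, and CRISPR/Cas9 lines derived from them. Mbd3 is a subunit of NuRD, a complex that combines nucleosome remodelling with histone deacetylation. The 5 groups were wild type, Mbd3ab KO (mutated in exon 2, genotype Mbd3ab -/-), Mbd3c KO (intron 2, Mbd3c -/-), Mbd3abc KO (exon 5, Mbd3abc -/-) and Mbd3cΔN-ab KO (exon 2, Mbd3cdeltaN; ab-/-). Each group held 2 RNA-seq libraries, called biological replicates in the labels. The read columns of the 2 libraries of each mutant carry different codes, and no label says whether these mark separate clones. The p-values measure only the spread between these libraries. All 4 comparisons use the same 2 wild type libraries.

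Wnt ligands are lipid-modified by Porcn before secretion and bind Frizzled receptors together with the co-receptors Lrp5 or Lrp6. Dishevelled then holds back a destruction complex of Axin, Apc, Gsk3 and casein kinase 1, so that beta-catenin accumulates and acts with Tcf/Lef factors, against the Tle corepressors. In embryonic stem cells the pathway is known for supporting self-renewal, and a separate branch through Celsr and Prickle proteins sets planar cell polarity.

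Only 2 members, Csnk1e and Celsr2, were called in 3 of the tables, and the sequences before their start sites are shown for that reason. Both were chosen after their values were seen. The bases are those of RefSeq on GRCm38.p6 (mm10), read 5′ to 3′ on the gene's strand, with each CG in capitals. The Csnk1e stretch is chr15:79442144-79442393 and the Celsr2 stretch is chr3:108415580-108415829, both on the minus strand.
Csnk1e: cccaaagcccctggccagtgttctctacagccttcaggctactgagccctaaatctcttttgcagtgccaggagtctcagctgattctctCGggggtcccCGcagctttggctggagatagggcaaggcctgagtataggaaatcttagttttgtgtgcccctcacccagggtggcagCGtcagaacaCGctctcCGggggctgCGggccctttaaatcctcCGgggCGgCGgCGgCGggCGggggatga
Celsr2: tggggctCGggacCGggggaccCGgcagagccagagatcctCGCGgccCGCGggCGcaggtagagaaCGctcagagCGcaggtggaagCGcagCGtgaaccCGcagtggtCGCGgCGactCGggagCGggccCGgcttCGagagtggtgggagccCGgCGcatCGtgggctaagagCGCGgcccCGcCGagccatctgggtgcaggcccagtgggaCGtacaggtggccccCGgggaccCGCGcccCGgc
For each gene the stretch lies before the most upstream RefSeq start, 86 bases upstream of the start in the deposited tables for Csnk1e and 85 for Celsr2. The stretch of Csnk1e held 12 CG and that of Celsr2 held 32, where the median of 32851 mouse promoters was 6. Csnk1e has 4 RefSeq starts, and the 250 bases before the others held 29 (the start that the tables use), 43 and 46 CG, so the printed stretch is the poorest in CG of the 4. The GC content of these bases was 61.2% for Csnk1e and 75.2% for Celsr2. Promoter sequence was at hand for 31 of the 50 members. The letters CTTTGAA or CTTTGAT, the core of the Tcf/Lef motif, were searched on both strands from 250 bases before to 50 bases after the start. They occurred in 1 of 43 member promoters, that of Gsk3a, and in 8.65% of all promoters. A match is a description of the letters and not a binding site.

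The libraries differed in depth from 0.485 to 1.59 times the first wild type library. Mbd3 itself was 2.61-fold lower than wild type in Mbd3ab KO, 13.0-fold lower in Mbd3abc KO and 5.57-fold lower in Mbd3cΔN-ab KO, and is not listed in the Mbd3c KO table. Cell type markers are counted here by their calls, and the sums hold called markers only. Of all tested genes 52.1% were called in Mbd3abc KO, 41.5% in Mbd3cΔN-ab KO, 3.35% in Mbd3ab KO and 0.353% in Mbd3c KO. Of 12 pluripotency markers 8 were called in Mbd3abc KO. Those 8 summed to 48674 and 48858 normalized reads in wild type and to 32297 and 35677 in the mutant. Pou5f1 was among the 5 of them that fell, while Klf4 was among the 3 that rose. In Mbd3cΔN-ab KO 6 of the 12 were called, 5 lower and 1 higher. Of 7 neuroectoderm markers 3 were called and lower in both mutants, summing to 469 and 493 normalized reads in wild type and to 86.0 and 139 in Mbd3abc KO, where Pax6 was at 0. Of 7 trophectoderm markers 3 were called and higher in Mbd3abc KO, and their sum went from 266 and 325 to 1708 and 951. Of 7 fibroblast markers 2 were called in each of these mutants, Col1a1 lower and Thy1 higher. In Mbd3ab KO 3 trophectoderm markers were higher and 1 lower, in Mbd3cΔN-ab KO 2 and 1, and in Mbd3c KO Krt18 was higher. Of 8 endoderm markers Dab2 alone was called, higher in Mbd3abc KO, and of 8 mesoderm markers Mixl1 was higher and Evx1 lower there and Hand1 lower in Mbd3cΔN-ab KO. The part of such shifts in the results below was not tested, and in bulk RNA fewer cells of a type and less RNA per cell cannot be told apart.

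In cells without isoforms a and b, 3 members changed. Csnk1e rose, while Tle4 and Celsr2 fell. Csnk1e encodes casein kinase 1 epsilon, which phosphorylates Dishevelled, Tle4 is a Groucho-type corepressor, and Celsr2 is a cadherin that crosses the membrane several times and acts in planar polarity. No ligand, receptor or secreted antagonist was called. Across all genes 3.35% of 13201 tested were called in this comparison, with 2.05% higher and 1.3% lower.

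Levels are given throughout as reads divided by the size factor of the library, called normalized reads, and compare within a table only. Wild type and mutant libraries overlapped for no listed member in any table. A lack of overlap is therefore a description here and adds no support to a call. The same share over all listed genes is not given here, so it does not set the members apart. Csnk1e (chr15:79417852-79442057, minus strand) stood at 573 and 497 normalized reads in the wild type libraries and at 1845 and 905 in the Mbd3ab KO libraries. The mutant libraries were both above wild type but far apart, and the ratio of means was 2.57. In the authors' deposited table the log2 fold change of Csnk1e was 1.15 ± 0.31 (SE), with a DESeq2 adjusted p of 0.0119. Celsr2 (chr3:108390848-108415494, minus strand) went from 579 and 474 to 256 and 325 normalized reads, with no overlap and a 1.81-fold lower mean (DESeq2 adjusted p = 0.0314 in the authors' deposited table). Tle4 went from 1749 and 1680.2 to 1056 and 1186, a 1.53-fold lower mean (DESeq2 adjusted p = 0.0281 in the authors' deposited table). An edgeR refit of the recovered reads called 0 of the 3, with 3 at an unadjusted p under 0.05. In DESeq2 refits the scaling set which calls stayed: Tle4 and Celsr2 with size factors from the listed genes, Csnk1e alone with the deposited ones, and 0 of the 3 with the deposited ones and either wild type library left out.

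In Mbd3c KO 0 members were listed. The table of that mutant is short, with 0.353% of 10759 tested genes called by DESeq2, so it holds no p-value for any member and no level for them.

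In cells without all 3 isoforms, changes were found in every role group. Among the called members 15 rose and 28 fell. The most abundant Frizzled genes, both called Dishevelled genes, the beta-catenin coactivators and the called planar polarity genes fell. Apc, 4 casein kinase 1 genes, Gsk3b, Lrp6, Fzd3 and Fzd6 rose. The call rate over all genes was high in this comparison: 52.1% of 15622 tested genes were called, 27.1% higher and 24.9% lower. The 43 called members had a median log2 fold change of -0.86, where all called genes had 0.46, and a median size of change of 1.12 against 1.15 over all called genes. Of the called members 34.9% were higher, against 52.1% of all called genes. Without the first wild type library 18 of the 43 passed in a DESeq2 refit, without the second 21, and without the first mutant library 28.

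**Figure D1:**
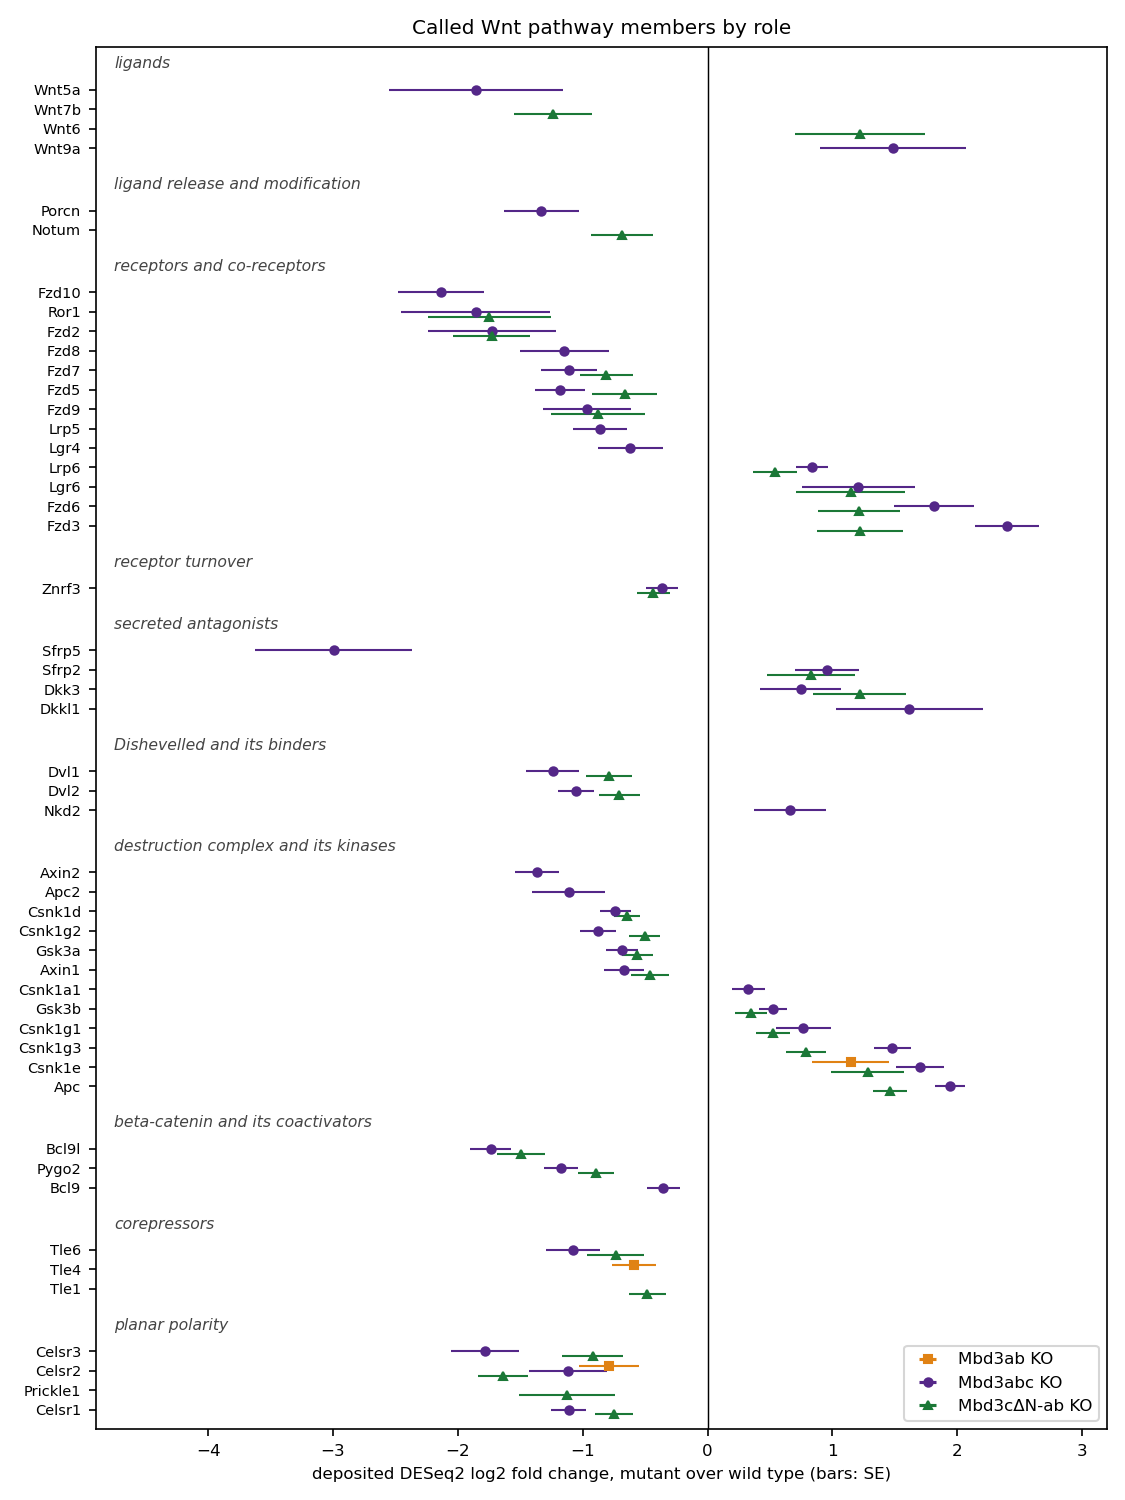
Deposited log2 fold change over wild type (x axis, bars are SE) for each called member (y axis), grouped by role, in Mbd3ab KO (squares), Mbd3abc KO (circles) and Mbd3cΔN-ab KO (triangles). Coactivators, corepressors and planar polarity genes lie left of 0. The group of the destruction complex and its kinases, with all Csnk1 genes, is split into 6 genes on each side in Mbd3abc KO.

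Among the ligands, Wnt9a rose and Wnt5a fell in Mbd3abc KO, both from very few reads. Wnt9a had 3 and 9 reads in wild type and 29 and 17 in the mutant, and Wnt5a had 6 and 10 reads in wild type and 0 and 1 in the mutant. Neither passed when any 1 library was left out. Porcn, the acyltransferase that adds the lipid to Wnt proteins, had 501 and 479 normalized reads in wild type and 140.2 and 231 in the mutant. Both mutant libraries lay well below wild type, a 2.64-fold lower mean (DESeq2 adjusted p = 3.39e-05 in the authors' deposited table).

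Of 18 annotated receptors and co-receptors, 4 rose and 9 fell in Mbd3abc KO. Fzd10 (chr5:128601106-128604093, plus strand) fell most among the Frizzled genes. Its level was 233 and 166 normalized reads in wild type and 48.3 and 33.4 in the mutant. The groups did not overlap, and the mean was 4.88-fold lower, with a log2 fold change of -2.13 ± 0.34 (SE) and a DESeq2 adjusted p of 2.96e-09 in the authors' deposited table. Fzd2 went from 109 and 121 normalized reads to 13.5 and 42.0. The mutant libraries of Fzd2 were far apart, yet both stayed below wild type (4.15-fold lower).
Fzd3 (chr14:65192441-65262463, minus strand) moved the other way. It had 79.8 and 74.2 normalized reads in wild type and 371 and 488 in the mutant, so that each mutant library was above both wild type ones. The mean was 5.58-fold higher, with a log2 fold change of 2.40 ± 0.25 (SE) and a DESeq2 adjusted p of 6.24e-20 in the authors' deposited table. Fzd6 went from 47.6 and 30.2 to 139 and 149.8 normalized reads, 3.71-fold higher. The co-receptors moved apart. Lrp6 went from 1319 and 1376 to 2285 and 2548 normalized reads, 1.79-fold higher. Lrp5 went from 1577 and 1450.1 to 945 and 696, 1.84-fold lower. Ror1, a receptor tyrosine kinase-like protein that binds Wnt5a, fell from 24 and 34 reads to 2 and 9.

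Per kilobase of transcript, Fzd7 and Fzd5 were the most abundant Frizzled genes listed, at 496 and 449.7 normalized reads per kb in wild type. They were followed by Fzd10 at 66.8, Fzd9 at 39.9, Fzd2 at 31.7, Fzd8 at 19.4, Fzd6 at 9.55 and Fzd3 at 6.05. In Mbd3abc KO, Fzd7 and Fzd5 still led, at 226 and 195 normalized reads per kb. Fzd6 and Fzd3, lowest in wild type, stood next at 35.5 and 33.8, above Fzd9 at 19.3, Fzd10 at 13.7, Fzd8 at 8.19 and Fzd2 at 7.66.

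Znrf3, a membrane ubiquitin ligase that removes Frizzled from the surface, went from 686 and 683 normalized reads to 546 and 513. The change was small, 1.29-fold lower, and its call ended in each refit that left out 1 library. Among the secreted antagonists Sfrp2, which binds Wnt proteins, rose from 149 and 198 to 387 and 308 normalized reads, 2.00-fold higher. Dkk3, a divergent Dickkopf protein, rose from 45.1 and 58.7 to 79.3 and 102. Dkkl1, a Dickkopf-like protein that is not an established Wnt inhibitor, rose from 7.73 and 8.98 to 52.2 and 20.04. The calls of Dkk3 and Dkkl1 also ended when any library was left out. Sfrp5 fell from 17 and 30 reads to 1 and 1.

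Dvl1 and Dvl2, the Dishevelled proteins that relay the receptor signal, both fell. Dvl1 had 631 and 640.2 normalized reads in wild type and 302 and 226 in the mutant, 2.41-fold lower (DESeq2 adjusted p = 3.2e-08 in the authors' deposited table). Dvl2 had 2253 and 1935 in wild type and 1013 and 989 in the mutant, 2.09-fold lower. For both genes the 2 mutant libraries lay together, below both wild type libraries. Nkd2, which binds Dishevelled and limits the signal, rose 1.63-fold, from 47.6 and 56.3 to 79.3 and 89.7 normalized reads, a call that was lost without any 1 library.

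In the role group of the destruction complex and its kinases, which takes in every Csnk1 gene by symbol, 6 genes rose and 6 fell. The group includes Csnk1e and Csnk1g3, which act on Dishevelled and on Lrp6, so this split does not describe the complex alone. Related genes moved apart: Apc rose and Apc2 fell, Gsk3b rose and Gsk3a fell, and Csnk1g1 and Csnk1g3 rose while Csnk1g2 fell. Axin1 and Axin2 both fell. Apc, the scaffold that hands beta-catenin to its kinases, had 874 and 812 normalized reads in wild type and 3387 and 3152 in the mutant. The mutant libraries agreed closely, with a log2 fold change of 1.94 ± 0.12 (SE) and a DESeq2 adjusted p of 2.34e-55 in the authors' deposited table. Apc2, its relative expressed mainly in the nervous system, had 125 and 103 in wild type and 56.1 and 44.8 in the mutant.
Csnk1e went from 668 and 572 to 2275 and 1849.8 normalized reads, 3.33-fold higher, with no overlap. Csnk1g3, a membrane-bound casein kinase 1 that acts on Lrp6, went from 252 and 279.8 to 736 and 769.9, 2.83-fold higher. Csnk1g2 went from 1903 and 2016 to 982 and 1138, 1.85-fold lower. Each of these 3 kinases held its direction in both mutant libraries and its call in all 4 refits that left out 1 library. The 2 Gsk3 genes changed less. Gsk3b went from 792 and 802 to 1129.9 and 1169, 1.44-fold higher, a call that ended in the DESeq2 refit with size factors from the listed genes. Gsk3a went from 1627 and 1579 to 1044 and 943, 1.61-fold lower. Axin2, a feedback inhibitor and a widely used Wnt target, fell from 425 and 385 to 159 and 149.8 normalized reads, 2.63-fold lower (DESeq2 adjusted p = 6.94e-14 in the authors' deposited table).

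The 3 called coactivators of beta-catenin fell. Bcl9l, which links beta-catenin to Pygo proteins, went from 570.3 and 532 to 159 and 166 normalized reads. Its mutant libraries lay close together, and the mean was 3.40-fold lower, with a log2 fold change of -1.74 ± 0.16 (SE) and a DESeq2 adjusted p of 1.02e-25 in the authors' deposited table. Pygo2, a reader of methylated histone H3, went from 1014 and 922 to 432 and 418, 2.28-fold lower. Bcl9 went only from 868 and 856 to 710.4 and 636, and lost its call when any library was left out. Of the corepressors, Tle6, which is also known as part of the oocyte's subcortical maternal complex, fell 2.15-fold, from 180.2 and 173 to 78.3 and 85.9.

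All 3 called planar polarity genes were Celsr cadherins, and all fell. Celsr3 had 403 and 366 normalized reads in wild type and 128 and 84.9 in the mutant, 3.62-fold lower. Celsr2 had 675 and 546 in wild type and 205 and 334 in the mutant, 2.26-fold lower. Celsr1 had 1019.5 and 914 in wild type and 443 and 445 in the mutant, 2.18-fold lower. Wild type and mutant libraries did not overlap for any of the 3, as for every listed member, and the mutant libraries of Celsr2 were the widest apart. An annotated microRNA gene overlaps Celsr3 on its strand, so their reads cannot be told apart.

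In the line labelled Mbd3cΔN-ab KO, Fzd2, Dvl1, Dvl2, Bcl9l, Pygo2 and the Celsr genes were among those that fell, and Apc, Csnk1e, Csnk1g3, Fzd3 and Fzd6 among those that rose. Among the called members of Mbd3cΔN-ab KO 12 rose and 22 fell, and 41.5% of 14429 tested genes were called, 21.1% higher and 20.4% lower. The 34 called members had a median log2 fold change of -0.60, where all called genes had 0.37. Of the called members 35.3% were higher, against 50.9% of all called genes. Both comparisons use the same wild type libraries, and so their counts are not independent. Without the first wild type library a DESeq2 refit called 4 of the 34, without the second 7, and without the first or second mutant library 21 and 19.

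Of the ligands, Wnt7b and Wnt6 alone are listed in the Mbd3cΔN-ab KO table. Wnt7b went from 313 and 291 normalized reads to 150.4 and 85.5, both mutant libraries below wild type, a 2.56-fold lower mean with a log2 fold change of -1.24 ± 0.31 (SE) and a DESeq2 adjusted p of 0.000366 in the authors' deposited table. Wnt6, with far fewer reads, rose from 3 and 10 reads to 27 and 17. Notum, which removes the lipid from Wnt proteins and so inactivates them, fell from 722 and 536 to 331 and 428 normalized reads, 1.66-fold lower (DESeq2 adjusted p = 0.0164 in the authors' deposited table). Wnt7b, Wnt6 and Notum are not listed in the Mbd3abc KO table, which does not show that they differed between the mutants.

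Of the receptors 4 rose and 5 fell. Fzd3 went from 75.7 and 70.9 to 136 and 245 normalized reads, 2.60-fold higher, with the 2 mutant libraries far apart. Fzd6 went from 45.2 and 28.8 to 95.05 and 91.5, 2.52-fold higher. Fzd2 went from 104 and 115 to 25.3 and 33.0, 3.76-fold lower (DESeq2 adjusted p = 1.87e-07 in the authors' deposited table). No mutant library of these 3 receptors reached into the wild type range. Fzd5 fell 1.63-fold, from 3078 and 2841 to 1402 and 2219.8. Lrp6 rose 1.47-fold, from 1252 and 1315 to 1670.0 and 2093. Znrf3 fell 1.36-fold, from 651 and 652 to 485 and 477. For these 3 genes too the wild type libraries were all on one side of the mutant ones. Dkk3 rose from 42.8 and 56.1 to 95.05 and 169 normalized reads, 2.67-fold. Sfrp2 rose from 141.7 and 189 to 419.9 and 221, 1.94-fold, with its second mutant library close to wild type.

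Both Dishevelled genes fell. Dvl1 went from 599 and 612 to 384 and 307 normalized reads, 1.75-fold lower. Dvl2 went from 2138 and 1849 to 1289.8 and 1124, 1.65-fold lower. Apc rose from 829.5 and 776 to 2124 and 2376, 2.80-fold, with a log2 fold change of 1.46 ± 0.14 (SE) and a DESeq2 adjusted p of 4.26e-24 in the authors' deposited table. The Apc libraries of each genotype lay close together. Csnk1e went from 634 and 546 to 1956 and 1150.1 normalized reads, 2.63-fold higher, with its first mutant library well above the second. Csnk1g3 went from 239 and 267 to 451 and 439, 1.76-fold higher. In this mutant 5 genes of the role group of the destruction complex and its kinases rose and 4 fell. Gsk3a (1.48-fold lower) and Gsk3b (1.28-fold higher, its call ended in both DESeq2 refits) moved apart.

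Bcl9l fell from 541 and 508 to 159 and 198 normalized reads, 2.94-fold, and Pygo2 from 963 and 882 to 513 and 468, 1.88-fold. Tle6 and the Groucho-type corepressor Tle1 fell 1.72-fold and 1.40-fold. Celsr2 was the planar polarity gene that fell most. Its level was 640.2 and 521 in wild type and 173 and 184 in the mutant, 3.25-fold lower, with a log2 fold change of -1.64 ± 0.20 (SE) and a DESeq2 adjusted p of 6.97e-15 in the authors' deposited table. The mutant libraries of Celsr2 were nearly equal. Celsr3 fell 1.95-fold, Celsr1 1.70-fold and Prickle1, a cytoplasmic planar polarity protein, 2.47-fold from 42.8 and 48.3 to 21.7 and 15.2. Of all the called members Apc, Bcl9l, Celsr2 and Csnk1e kept their call in all 4 refits that left out 1 library.

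**Figure D2:**
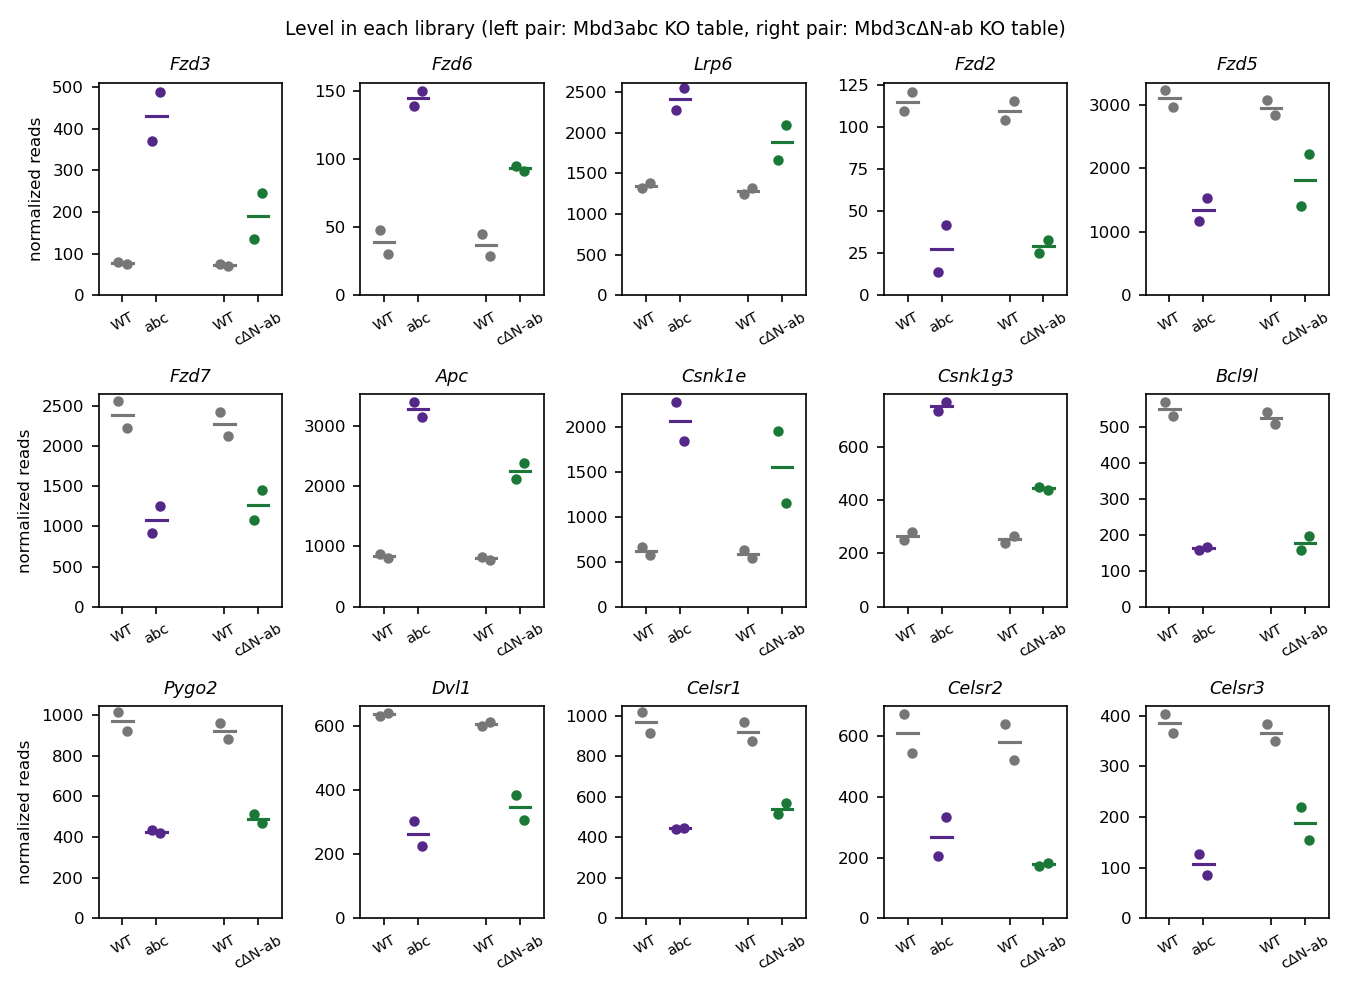
Normalized reads (y axes, from 0) of 15 members in each library, with points for libraries and lines for means. The left pair in each panel comes from the Mbd3abc KO table and the right pair from the Mbd3cΔN-ab KO table, and the same 2 wild type libraries appear in both, scaled separately. Every mutant point shown lies outside the wild type range, as it does for every listed member. Apc, for example, stood at 3387 and 3152 against 874 and 812.

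The 2 mutants were also compared with each other, without the wild type libraries. For the 29 members called in both tables, no difference passed an adjusted p of 0.05 in edgeR's quasi-likelihood test, and the smallest adjusted p was 0.114. In this comparison 0.185% of 5413 genes were called, and 24.2% had an unadjusted p under 0.05, as did 5 of the 29 members. DESeq2 called 6.36% of the genes and 1 member, Fzd3 (adjusted p = 0.0308). The libraries of the 2 mutants did not overlap for 19 of the 29 members, and for 60.4% of the 5413 genes. These 5413 are the genes listed for both mutants, and genes listed for only 1 of them were not compared.

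Fzd3 had 71.7 and 91.0 CPM (read counts scaled to the library total) in Mbd3abc KO and 28.3 and 48.1 in Mbd3cΔN-ab KO. Its log2 difference was 1.08, with a 95% interval from 0.36 to 1.80 (edgeR adjusted p = 0.130). Csnk1g3 had 142.1 and 143 CPM against 93.9 and 86.2, a log2 difference of 0.67 with an interval from 0.28 to 1.05 (edgeR adjusted p = 0.114). Both genes were higher in each Mbd3abc KO library, and Apc, with a log2 difference of 0.45 (interval 0.11 to 0.79), was the other member higher there at an unadjusted p under 0.05. Celsr3 was lower in Mbd3abc KO, at 24.6 and 15.8 CPM against 45.8 and 30.5, with a log2 difference of -0.91 (interval -1.72 to -0.10). Csnk1g2 was lower by a log2 difference of -0.40 (interval -0.75 to -0.05). The transcripts of Fzd3, Csnk1g3 and Apc hold 40.3%, 43.2% and 44.3% GC, and those of Celsr3 and Csnk1g2 57.8% and 60.2%. The part of GC content in the differences between the mutants was not tested. For Celsr1, Dvl2, Fzd6, Fzd5 and Dkk3 the intervals included 0, and for Ror1 the interval ran from -2.18 to 2.24, too wide to place the mutants.

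**Figure D3:**
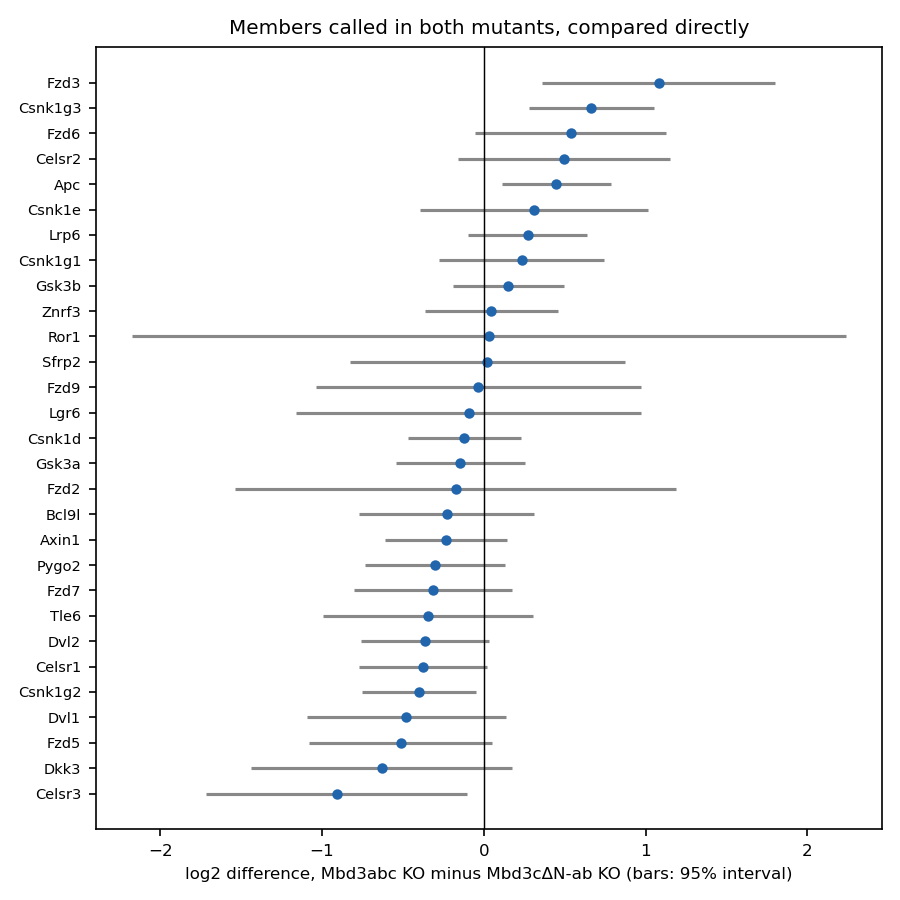
Log2 difference between Mbd3abc KO and Mbd3cΔN-ab KO (x axis, bars are 95% intervals from edgeR) for the 29 members called in both mutants (y axis). Fzd3 at 1.08 and Celsr3 at -0.91 lie at the ends, and the intervals of most members cross 0.

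The direction of the members went with the base composition of their transcripts. In Mbd3abc KO the members that rose had a median GC content of 47.4% and those that fell 57.0%, and over all called genes these medians were 44.9% and 55.2%. In Mbd3cΔN-ab KO they were 46.7% and 57.9%, against 44.1% and 55.7%. Among all called genes of Mbd3abc KO, 98.4% of the fifth with the lowest GC content were higher and 10.4% of the fifth with the highest. In Mbd3cΔN-ab KO these shares were 99.2% and 6.28%. Some related genes that moved apart differed in the same way. The transcript of Gsk3b holds 46.1% GC and that of Gsk3a 59.8%, Lrp6 46.0% and Lrp5 58.6%. Apc holds 44.3% and Apc2 61.5%, and Csnk1g3 43.2% and Csnk1g2 60.2%. Other related genes did not. Lgr6 and Wnt9a, which rose in Mbd3abc KO, hold 52.6% and 56.3%, while Lgr4 and Wnt5a, which fell there, hold 46.3% and 46.7%. Csnk1e, which rose, and Csnk1d, which fell, hold nearly equal shares, 52.3% and 52.9%.

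Each log2 fold change was therefore also set against the median of called genes in the same of 20 GC classes. By this choice called genes as a whole lie evenly above and below 0 on that scale. On that scale 22 of the 43 members called in Mbd3abc KO lay above 0 (51.2%, where 34.9% were higher as deposited), and 28 kept their sign. In Mbd3cΔN-ab KO 18 of 34 lay above 0 (52.9%, against 35.3%), and 18 kept their sign. The share of all called genes that kept their sign is not given here, so these counts do not set the members apart. In Mbd3abc KO the values of Lrp6, Gsk3b, Csnk1g1 and Csnk1a1 turned below 0, and those of Dvl1, Bcl9, Apc2, Csnk1g2, Csnk1d, Gsk3a, Axin1, Celsr1, Znrf3, Fzd9 and Lrp5 turned above 0. Gsk3b went from 0.52 to -0.35 and Gsk3a from -0.68 to 0.43 on the log2 scale. In Mbd3cΔN-ab KO Fzd3 and Csnk1g3 also turned below 0, to -0.09 and -0.10, and Dvl2, Tle6, Tle1 and Notum turned above 0. Members that kept their direction in both mutants included Csnk1e at 2.40 and 1.87, Apc at 0.81 and 0.66 and Fzd6 at 1.11 and 0.50. Bcl9l at -0.48 and -0.51 and Fzd2 at -0.73 and -0.96 did so too. So did Lgr6 at 1.91 and 1.73, Sfrp2 at 1.72 and 1.41 and Dkk3 at 1.32 and 1.75. Lgr6 had only 15 and 41 reads in wild type, 88 and 56 in Mbd3abc KO and 75 and 58 in Mbd3cΔN-ab KO. Ror1, with few reads, lay at -2.57 and -2.46. These genes are examples and not a ranking. The labels name 2 suppliers for the ribosomal RNA depletion (NEB and Clontech) and do not say which libraries each served. The part of GC content and of library preparation in these results was not tested.

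**Figure D4:**
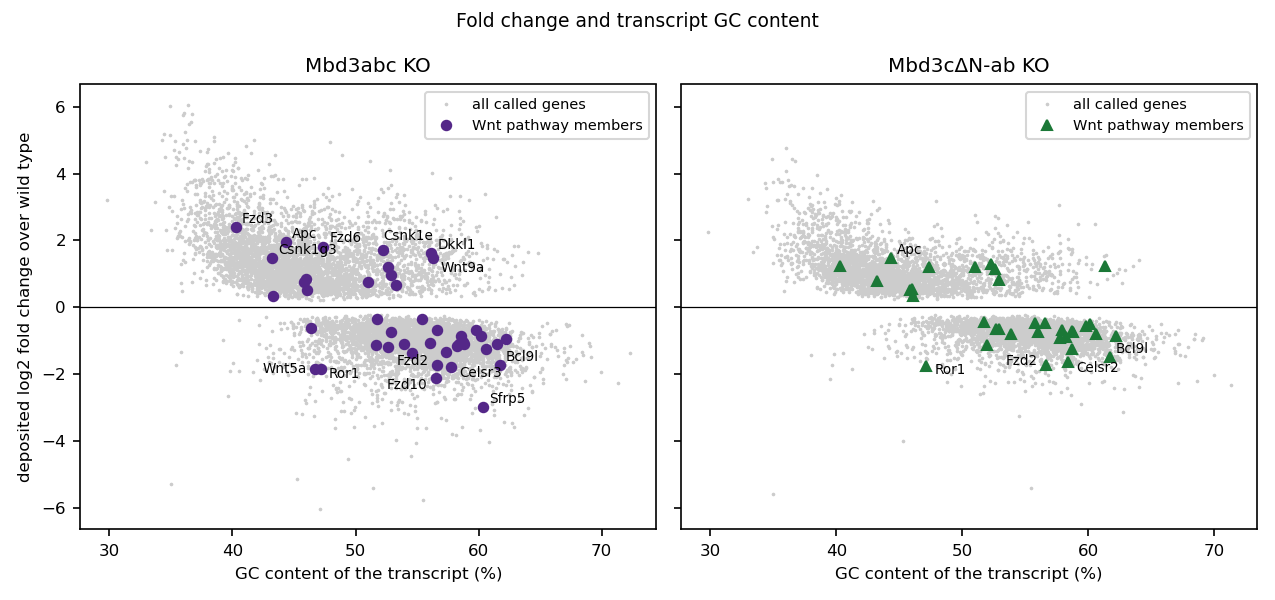
Deposited log2 fold change over wild type (y axis) against the GC content of the transcript in percent (x axis) for all called genes (grey points) and for called members (large symbols), in Mbd3abc KO (left) and Mbd3cΔN-ab KO (right). Members that rose lie mostly at lower GC content, with Fzd3 at 40.3%, and Csnk1e at 52.3% and Dkkl1 at 56.1% are among the exceptions.

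Of the Wnt pathway genes outside the members, 3 lists were described. Beside the counts of all 3 lists stand the 52.1% of tested genes called in Mbd3abc KO and the 41.5% in Mbd3cΔN-ab KO. Of 22 nuclear factors and targets, 11 were called in Mbd3abc KO, where 2 rose and 9 fell. In Mbd3cΔN-ab KO 6 were called, where 0 rose and 6 fell. The medians of the called ones were -1.20 and -1.09 on the log2 scale, where all called genes had 0.46 and 0.37. Lef1, a nuclear partner of beta-catenin, went from 297 and 319 to 3.86 and 5.73 normalized reads in Mbd3abc KO and from 282 and 305 to 33.7 and 90.6 in Mbd3cΔN-ab KO. The means were 64.3-fold and 4.72-fold lower. Ccnd1 fell 2.52-fold and 1.63-fold and Mycn 2.35-fold and 2.99-fold. The 2 that rose in Mbd3abc KO were Tcf7l2, a Tcf factor, 1.63-fold higher, and Mixl1, from 2 and 0 reads to 16 and 33.
In Mbd3ab KO, where 3.35% of tested genes were called, Lef1, Mycn and Ccnd1 were the 3 of the 22 that were called, all lower. Of 18 other secreted and membrane regulators 2 were called in each of the larger tables. Gpc3, a cell surface proteoglycan, fell 3.57-fold in Mbd3abc KO and 1.37-fold in Mbd3cΔN-ab KO, and Atp6ap2, the prorenin receptor, rose 2.61-fold and 1.71-fold. Of 29 other cytoplasmic and nuclear regulators 11 rose and 8 fell in Mbd3abc KO and 10 rose and 7 fell in Mbd3cΔN-ab KO. Ruvbl2, a chromatin ATPase, fell 3.03-fold and 2.08-fold, and Cdc73, a subunit of the Paf1 complex, rose 2.80-fold and 2.13-fold.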

How the data were processed

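RNA-seq of 10 libraries was used, 2 for each of 5 groups. The labels' protocols describe depletion of ribosomal RNA (NEB and Clontech) and strand-specific libraries. TopHat2, HOMER, DESeq2 and mm10 are named in the submitters' processing notes, here without versions. Exon reads were counted with HOMER on a set strand, with transcripts condensed to genes, per the file headers. The authors deposited 1 table per mutant, in which all but 1, 9 and 11 of the genes listed for Mbd3ab KO, Mbd3abc KO and Mbd3cΔN-ab KO, and all those for Mbd3c KO, are called. The authors deposited the read columns as a signal, normalized to equal library totals within each table. The log2 fold changes and their SE were deposited by the authors as made with DESeq2 per the file headers. Each deposited p-value and adjusted p-value was likewise made by the authors with DESeq2. The deposited score column, DESeq2's Wald statistic by its file header, was left out.

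The read columns were whole multiples of a library's step within 0.006 (100% of values), so reads were recovered. In the Mbd3ab KO and Mbd3c KO tables this rests on whole values and on wild type reads equal to those in the other tables (370 of 370 genes for Mbd3ab KO against Mbd3abc KO). Size factors came from the deposited mean column, and levels are comparable within a table only. The number of genes tested was recovered from the p and adjusted p columns. A call is an adjusted p below 0.05 in the authors' table, which left Pygo1 of the Mbd3abc KO table uncalled (DESeq2 adjusted p = 0.0501). Folds are ratios of group means, given where both groups had over 3 reads.

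Refits of listed genes (edgeR 4.0.16 quasi-likelihood, DESeq2 1.42.0, R 4.3.3) were adjusted over the recovered number tested, and were tested on simulated data. They take their spread from called genes. Refits with size factors from the deposited tables were added after seeing the data. The refits leaving out 1 library were switched to those size factors after their earlier values had been seen. A lone library is then assumed to vary like the other group. The 2 mutants were compared with edgeR (TMM) on 5413 genes in both tables. Transcript GC content came from GENCODE M21 and was found for all members and for 97.4% or more of the genes in every table. The members and lists were chosen with earlier results of these data known. Named genes are those called in Mbd3ab KO, the up to 4 largest changes of each role with at least 20 reads on average, those called in 3 tables, and the 10 lowest p-values between the mutants. Other genes are named as relatives of these or to complete a count, after their values were seen.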

Additional observations from a re-analysis of the deposited data

How the results depend on the processing

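No paired analysis was possible because the column names carry no replicate numbers. Of the 3 calls in Mbd3ab KO, 0 remained at an adjusted p of 0.01, 1 at a change of at least 2-fold, 0 in the edgeR refit with either set of size factors, 2 in the DESeq2 refit with size factors from the listed genes (Tle4 and Celsr2) and 1 with the deposited ones (Csnk1e). Leaving out 1 library gave 0 to 3. Of the 43 calls in Mbd3abc KO, 26 were at least 2-fold, and leaving out 1 library gave 18, 21, 28 and 31. Of the 34 in Mbd3cΔN-ab KO, 14 were at least 2-fold, and leaving out 1 library gave 4, 7, 19 and 21. Members higher in Mbd3abc KO numbered 9 at an adjusted p of 0.01, where 15 were higher at 0.05. Between the mutants DESeq2 called 1 member and edgeR 0, with or without any library. The cause of these differences was not tested, apart from the smaller samples. The edgeR refit called 40 of the 43 members in Mbd3abc KO, besides Pygo1, and 30 of the 34 in Mbd3cΔN-ab KO. DESeq2 called 35 and 25 of them, and no called member changed sign in a full refit. Size factors estimated from the listed genes, in place of the deposited ones, moved the median log2 fold change of those genes by -0.33 in Mbd3ab KO, -0.03 in Mbd3abc KO and -0.01 in Mbd3cΔN-ab KO with edgeR's TMM, and by -0.81, -0.24 and -0.18 with DESeq2. Changes in these refits are relative to that shift. In Mbd3c KO the count was 0 under every setting run, since no member is listed. Members with few reads (Wnt5a, Wnt6, Wnt9a, Sfrp5, Ror1) are limited by depth.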

Other observations

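Pygo1, a relative of Pygo2, is listed in the Mbd3abc KO table without being called: it had 9.01 and 8.16 normalized reads in wild type and 23.2 and 20.04 in the mutant, opposite in direction to Pygo2. The adjusted p of Pygo1 was 0.0501 in the authors' deposited table (DESeq2). Of the 19 annotated Wnt ligand genes 4 are listed in any table (Wnt5a, Wnt6, Wnt7b and Wnt9a), and Wnt7b is the one with more than 50 normalized reads in a library. In Mbd3abc KO the destruction complex and its kinases hold both the member of highest level in wild type, Csnk1a1 at 1254 normalized reads per kb, and Apc2 at 12.6.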
